A study of Mus musculus with 9 samples.

Results

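Cells that stop dividing or answer to stress switch on a small set of growth arrest genes, many of them targets of the transcription factor p53, and 10 such genes were followed here in non-epithelial cells of the mouse mammary gland. They were taken by gene symbol: the cyclin-dependent kinase (CDK) inhibitors Cdkn1a, Cdkn1b and Cdkn2a, the tumour suppressor Trp53 and its antagonist Mdm2, the stress sensors Gadd45a, Gadd45b and Gadd45g, and the antiproliferative genes Btg1 and Btg2. Of these, 9 had a row among the 11063 genes of the deposited table, and Cdkn2a was not analysed here. The 9 libraries came from #4 mammary glands of virgin FVB/N females, 6 weeks old when the diets began, with 1 library per mouse. Of these mice, 4 were fed ad libitum (numbered 2 to 5) and 5 were under calorie restriction (CR, numbered 1 to 5) for 8 weeks, and the labels name no allele and no agent in either group. The labels put the food of the CR mice at 65% of that eaten by their ad libitum-fed counterparts, and the methods of the study give a slightly higher share. Both groups went through the same depletion of lineage-positive (Lin+) cells, which was meant to remove endothelial cells, fibroblasts and part of the blood cells before sorting, and 15000 Lin-CD49fnegCD24neg cells and 30 ng of RNA were used per mouse. The cells left after this depletion are a mixture, and each measurement is of the mixture.

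p53 is held low in resting cells by MDM2, which marks it for degradation, and is released by DNA damage and other stresses, so that its activity is set mainly at the level of the protein. Its best known target is Cdkn1a, whose product p21 blocks the CDKs that drive cells from the G1 into the S phase. Mdm2 is itself a p53 target and closes a negative feedback loop. GADD45 proteins bind p21, PCNA and an upstream kinase of the p38 and JNK pathways, and BTG proteins recruit the CCR4-NOT deadenylase to messenger RNAs and slow entry into the cell cycle. Calorie restriction is known to slow proliferation in many tissues.

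The promoters of the genes that the results turn on are printed here so that shared and differing sequence can be seen beside the values. The sequences are RefSeq windows on the GRCm38 build of the mouse genome, from 250 bases before to 50 bases after an annotated start, and all 10 genes had at least 1 window. Capitals mark matches, on either strand, to the p53 half-site, the TATA box TATAAA, the CCAAT box, the E-box CACGTG, the AP-1 site TGANTCA, the cyclic AMP response element TGACGTCA, the GC box GGGCGG and the octamer ATTTGCAT. The first is the upstream window of Cdkn1a (chr17:29090729-29091028, + strand), shown for its p53 sequence. The others are the single windows of Gadd45g (chr13:51846425-51846724, + strand), Gadd45b (chr10:80929841-80930140, + strand) and Gadd45a (chr6:67037358-67037657, - strand). These 3 are shown because they belong to 1 family, of which only Gadd45g was called under CR.
Cdkn1a: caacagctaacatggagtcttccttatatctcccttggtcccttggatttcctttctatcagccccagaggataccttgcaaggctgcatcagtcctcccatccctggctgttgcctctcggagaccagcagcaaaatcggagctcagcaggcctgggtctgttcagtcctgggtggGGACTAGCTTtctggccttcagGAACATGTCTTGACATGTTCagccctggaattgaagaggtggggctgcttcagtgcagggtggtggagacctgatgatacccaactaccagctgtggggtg
Gadd45g: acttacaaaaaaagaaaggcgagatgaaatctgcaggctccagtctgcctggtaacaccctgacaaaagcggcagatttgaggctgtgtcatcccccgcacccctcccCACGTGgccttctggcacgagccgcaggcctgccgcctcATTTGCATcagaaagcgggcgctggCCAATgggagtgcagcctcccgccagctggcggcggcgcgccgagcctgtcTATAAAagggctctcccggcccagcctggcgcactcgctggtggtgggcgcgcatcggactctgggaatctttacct
Gadd45b: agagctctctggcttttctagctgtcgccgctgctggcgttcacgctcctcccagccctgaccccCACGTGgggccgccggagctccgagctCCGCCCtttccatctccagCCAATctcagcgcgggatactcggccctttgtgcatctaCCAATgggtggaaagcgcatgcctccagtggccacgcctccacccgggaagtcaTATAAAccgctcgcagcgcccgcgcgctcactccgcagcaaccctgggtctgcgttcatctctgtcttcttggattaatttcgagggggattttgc
Gadd45a: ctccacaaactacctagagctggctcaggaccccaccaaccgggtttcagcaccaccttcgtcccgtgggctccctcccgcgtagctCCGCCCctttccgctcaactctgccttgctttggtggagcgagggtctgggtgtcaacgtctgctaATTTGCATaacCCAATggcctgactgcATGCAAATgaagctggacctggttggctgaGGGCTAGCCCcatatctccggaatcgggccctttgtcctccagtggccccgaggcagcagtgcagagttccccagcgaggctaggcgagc

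In the Cdkn1a window a pair of adjacent p53 half-sites with 1 mismatch, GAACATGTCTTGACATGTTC, lay 51 to 32 bases before the start. Such a pair was present in 29 of the 32817 RefSeq windows of this length, or 0.0884%, and this search was chosen after the window had been seen. A single p53 half-site was present in 8.36% of the windows, among them those of Gadd45a, Mdm2 and Trp53, and in Cdkn1a one of its 2 matches lies within the pair. The second Cdkn1a window (chr17:29093519-29093818) held 2 matches to GGGCGG, which 35.6% of windows have. TATAAA, present in 13.6% of windows, stood 27 to 22 bases before the start in Gadd45g and 46 to 41 before it in Gadd45b, and the Gadd45a window held none. ATTTGCAT was present in 1.74% of windows and occurred 1 time in Gadd45g and 2 times in Gadd45a. CACGTG was present in 7.15% of windows, including those of Gadd45g and Gadd45b. CCAAT, present in 37.4%, occurred in all 3 Gadd45 windows. None of the capitalised matches in the 3 Gadd45 windows overlapped each other, and a match is a string of letters, not a measured binding site.

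Under CR, Gadd45g and Cdkn1a rose, and none of the other 5 genes with a test changed past the threshold. Gadd45g rose 2.40-fold and Cdkn1a 1.76-fold between the group means, and for both genes the lowest CR mouse lay above the highest ad libitum-fed mouse. For Trp53 and Mdm2, the centre of the pathway, the 95% interval of the change included 0. All values are deposited normalized counts, that is, RNA molecules counted at their 3' ends, each library having been divided by its own size factor. A gene was tested with limma on log2(normalized count + 1) where at least 4 libraries had at least 10 normalized counts, which held for 6815 genes, with 0.05 as the highest adjusted p (Benjamini-Hochberg) of a called gene. Of the 9 growth arrest genes, 7 were tested, 2 were called higher and 0 lower (likewise 2 and 0 at an unadjusted p under 0.05, and 2 in all with DESeq2 and with edgeR), where 7.98% of all tested genes were called higher and 9.14% lower. Separation of the diets without overlap, seen for these 2 genes, was present in 7.29% of all tested genes with CR higher and in 9.63% with CR lower. The median log2 fold change of the 7 genes was 0.38 and that of all tested genes 0.07. Because each library is a separate mouse, the p-values measure the spread between mice.

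**Figure D1:**
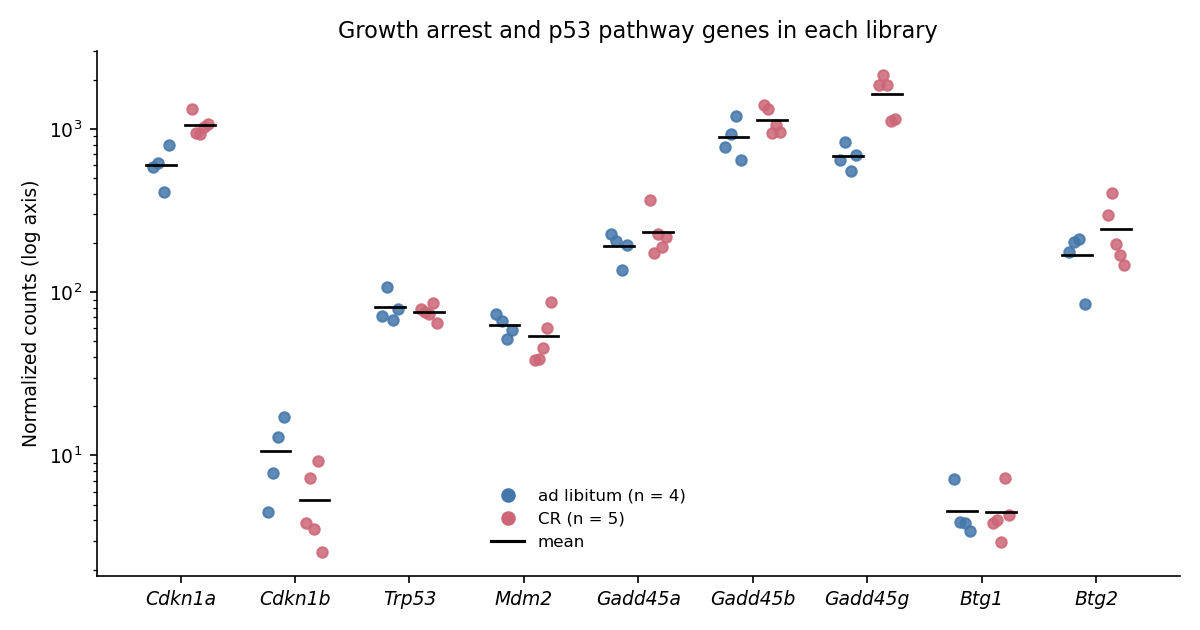
Normalized counts (log axis) of the 9 growth arrest genes with a row in each library, for 4 ad libitum-fed and 5 CR mice, with a black line at each group mean. For Cdkn1a and Gadd45g all 5 CR points lie above all 4 ad libitum points, and the points of the other genes overlap between the diets.

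Cdkn1a encodes p21 and lies at chr17:29090976-29100727 on the + strand (GRCm38). Its normalized counts were 584, 614, 411 and 796 in ad libitum-fed mice 2 to 5. In CR mice 1 to 5 they were 1327, 946, 924, 1021 and 1075. Every CR mouse was above every ad libitum-fed mouse, with the closest approach between ad libitum-fed mouse 5 and CR mouse 3. The means were 601 ± 158 (SD, n = 4) and 1059 ± 162 (SD, n = 5). The log2 fold change was 0.84 (SE 0.18, 95% interval 0.45 to 1.23, adjusted p = 0.00378, limma). By the exact two-sided permutation test over the 126 assignments of the mice, p was 0.00794, the smallest this design can give, and 0.0357 after adjustment over the 9 genes. The values rest on 315 to 1978 recovered counts per library, for which the counting error is 2.25% to 5.63%, below the coefficient of variation between mice of 26.2% among ad libitum-fed and 15.3% among CR mice. Libraries from CR mice were deeper on the whole (785301 to 1485963 recovered counts in all, against 382877 to 817030), and 9557 to 10616 genes were detected per library. The ranges of depth overlapped only in ad libitum-fed mouse 2 at 817030 and CR mouse 1 at 785301 recovered counts. The part of depth in these values was not tested.

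Cdkn1b, which encodes the related inhibitor p27 (chr6:134920401-134925513, + strand), was near the limit of detection. It had 4.49, 7.79, 12.9 and 17.2 normalized counts in mice 2 to 5 of the ad libitum group, from 3 to 18 recovered counts per library over both diets. CR mice 1 to 5 were at 3.87, 7.27, 3.53, 9.29 and 2.57. The diets overlapped, with means of 10.6 ± 5.61 (SD, n = 4) and 5.31 ± 2.85 (SD, n = 5) and an exact permutation p of 0.119 (0.268 adjusted over the 9 genes). The gene did not pass the filter on low values, and without that filter its log2 fold change was -0.85 with an adjusted p of 0.359 (limma). In these libraries 3 recovered counts, the most that a count of 0 allows, correspond to 1.55 to 5.85 normalized counts, so that several of the values lie near that limit.

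Trp53 encodes p53 (chr11:69580359-69591873, + strand). Ad libitum-fed mice 2 to 5 had 70.9, 107, 67.0 and 79.3 normalized counts. CR mice 1 to 5 had 78.3, 76.0, 73.5, 85.2 and 64.3. The CR values lay within the ad libitum range except that of CR mouse 5, just under it. The means were 81.1 ± 18.1 (SD, n = 4) and 75.5 ± 7.59 (SD, n = 5), and the log2 fold change was -0.08 (SE 0.21, 95% interval -0.53 to 0.36, adjusted p = 0.830, limma). The interval covers folds from 0.693 to 1.28, and the exact permutation p was 0.643. Without ad libitum-fed mouse 3, which has the highest value, the log2 fold change was 0.056.

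Mdm2 encodes the ubiquitin ligase that restrains p53 (chr10:117688875-117710758, - strand). Its normalized counts were 73.6, 66.2, 51.5 and 58.6 in ad libitum-fed mice 2 to 5. In CR mice 1 to 5 they were 38.7, 38.8, 45.3, 59.9 and 87.5. The CR group held both the 3 lowest values and the highest one, and its coefficient of variation was 38.2%, against 15.2% among ad libitum-fed mice and a counting error of 9.28% to 17.1%. The means were 62.5 ± 9.53 (SD, n = 4) and 54.0 ± 20.6 (SD, n = 5), and the log2 fold change came to -0.27 (SE 0.26, 95% interval -0.82 to 0.29, adjusted p = 0.541, limma) and an exact permutation p of 0.349. The interval covers folds from 0.566 to 1.22.

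**Figure D2:**
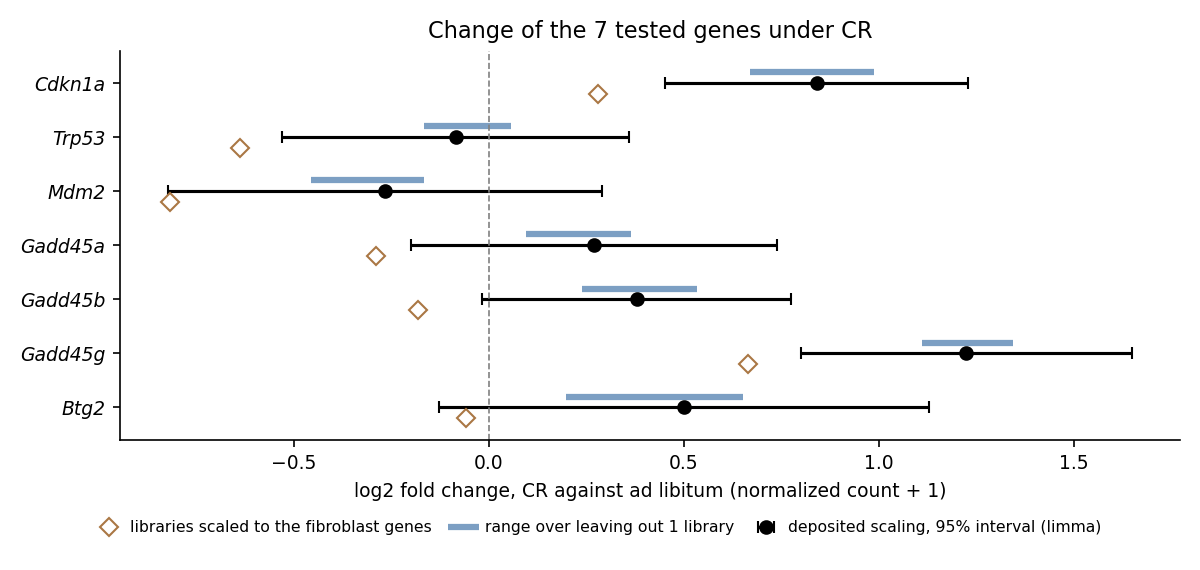
Log2 fold change of the 7 tested genes, CR against ad libitum (n = 5 and 4), with 95% intervals from limma in black, the range over leaving out each of the 9 libraries in blue, and the value after scaling the libraries to 12 fibroblast genes as open diamonds. The intervals of Cdkn1a and Gadd45g lie above 0, and the diamonds of Gadd45a, Gadd45b and Btg2 lie below 0.

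Gadd45g, the GADD45 family member also known as a cytokine-induced gene (chr13:51846678-51848468, + strand), had the largest difference of the 7. Its normalized counts were 646, 824, 552 and 686 in ad libitum-fed mice 2 to 5. In CR mice 1 to 5 they were 1848, 2146, 1849.8, 1119 and 1151. CR mice 1 to 3 were high, CR mice 4 and 5 lower, and all 5 were above every ad libitum-fed mouse. The means were 677 ± 113 (SD, n = 4) and 1623 ± 461 (SD, n = 5), and the log2 fold change came to 1.22 (SE 0.20, 95% interval 0.80 to 1.65, adjusted p = 0.000307, limma). The exact permutation p was 0.00794, the smallest possible here, and 0.0357 adjusted over the 9 genes. Between 398 and 3146 recovered counts per library stand behind these values, with a counting error of 1.78% to 5.01%. Leaving out each library in turn gave log2 fold changes from 1.11 to 1.35 for Gadd45g and from 0.67 to 0.99 for Cdkn1a, and both genes stayed called each time.

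Gadd45b (chr10:80930073-80932204, + strand), a stress- and cytokine-induced family member, had 775, 927.5, 1192 and 643 normalized counts in mice 2 to 5 of the ad libitum group. Under CR, mice 1 to 5 had 1400.4, 1326, 948, 1051 and 957. Only CR mice 1 and 2 exceeded the highest ad libitum-fed mouse, number 4. The means were 884.5 ± 236 (SD, n = 4) and 1137 ± 212 (SD, n = 5), and the log2 fold change was 0.38 (SE 0.19, 95% interval -0.02 to 0.78, adjusted p = 0.185, limma), with an exact permutation p of 0.119.

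Gadd45a (chr6:67035096-67037457, - strand), the classical p53-responsive member of the family, had 228, 205, 137 and 195 normalized counts in mice 2 to 5 of the ad libitum group. Under CR, the values of mice 1 to 5 were 367, 173, 228, 189 and 217. CR mouse 1 stood above the rest, and the other CR mice lay within the ad libitum range or, for mouse 3, at its upper edge. The means were 191 ± 38.8 (SD, n = 4) and 235 ± 77.2 (SD, n = 5). The log2 fold change was 0.27 (SE 0.22, 95% interval -0.20 to 0.74, adjusted p = 0.452, limma), with an exact permutation p of 0.381.

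Ratios of a pair of genes within a library do not depend on how libraries are scaled, and they were computed for the 21 pairs of tested genes after the single values had been seen. Gadd45g per Gadd45a was 2.83, 4.03, 4.04 and 3.52 in mice 2 to 5 of the ad libitum group and 5.03, 12.4, 8.11, 5.92 and 5.30 in CR mice 1 to 5. The diets did not overlap, with means of 3.61 ± 0.568 (SD, n = 4) and 7.35 ± 3.07 (SD, n = 5) and an exact permutation p of 0.0159. Gadd45g per Gadd45b went from 0.813 ± 0.254 to 1.43 ± 0.355 (SD, n = 4 and 5, exact permutation p = 0.0238), with an overlap between ad libitum-fed mouse 5 at 1.07 and CR mouse 4 at 1.06. Gadd45a per Gadd45b was 0.233 ± 0.0872 and 0.208 ± 0.0529 (SD, n = 4 and 5, exact permutation p = 0.746). Cdkn1a per Trp53 was 8.24, 5.73, 6.13 and 10.04 in mice 2 to 5 of the ad libitum group and 16.95, 12.4, 12.6, 11.99 and 16.7 in CR mice 1 to 5, again without overlap (exact permutation p = 0.00794). Cdkn1a per Mdm2 went from 9.69 ± 2.67 to 21.7 ± 8.34 (SD, n = 4 and 5, exact permutation p = 0.0238), and CR mouse 5 at 12.3 fell below ad libitum-fed mouse 5 at 13.6. Gadd45g per Cdkn1a was 1.16 ± 0.230 and 1.57 ± 0.543 (SD, n = 4 and 5, exact permutation p = 0.206). After adjustment over the 21 pairs the lowest p was 0.0833, so that 0 pairs passed the threshold of 0.05. At an unadjusted p under 0.05 there were 7, and 4 pairs did not overlap between the diets. All of these pairs include Gadd45g or Cdkn1a, which separate the diets singly, so they are not further results. The share over pairs of all tested genes was not computed. The smallest permutation p of this design is 0.00794, and 1 pair alone at that p could not pass this adjustment. The adjusted values therefore cannot decide whether a single ratio changed.

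**Figure D3:**
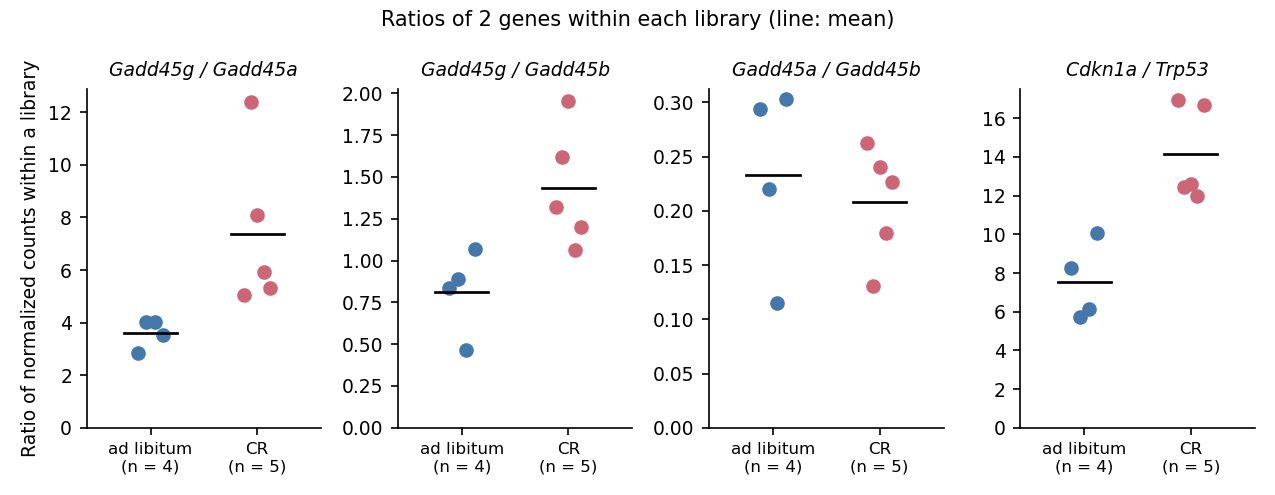
Ratio of the normalized counts of 2 genes within each library (points, 4 ad libitum-fed and 5 CR mice) with the mean as a line, each panel on its own axis from 0. Gadd45g per Gadd45a and Cdkn1a per Trp53 do not overlap between the diets, Gadd45g per Gadd45b overlaps by 1 mouse of each diet, and Gadd45a per Gadd45b is at 0.233 and 0.208 on average.

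Btg2 (chr1:134075170-134079120, - strand), a p53 target and an early response gene, had 176, 203, 213 and 84.5 normalized counts in mice 2 to 5 of the ad libitum group. Mice 1 to 5 of the CR group had 297, 402, 196, 169 and 148. CR mice 1 and 2 were above all ad libitum-fed mice and the others among them. The means were 169 ± 58.4 (SD, n = 4) and 242 ± 106 (SD, n = 5), and the log2 fold change came to 0.50 (SE 0.30, 95% interval -0.13 to 1.13, adjusted p = 0.280, limma) and an exact permutation p of 0.286. The interval reaches a 2.19-fold rise. Btg1 (chr10:96617006-96622809, + strand), its close relative, had 7.18, 3.90, 3.87 and 3.45 normalized counts in mice 2 to 5 of the ad libitum group and 3.87, 4.04, 2.94, 7.23 and 4.29 in CR mice 1 to 5. These are 2 to 14 recovered counts per library, the gene did not pass the filter, and the exact permutation p was 0.873.

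Other genes of the pathway were counted from 8 lists, chosen with earlier results of these data known. They hold 132 genes, of which 100 had a row and 68 were tested. Of these, 5 were called higher and 9 lower in CR, or 7.35% and 13.2%, where 7.98% and 9.14% of all tested genes were, and their median log2 fold change was -0.18. The call count of 14 was 9 without ad libitum-fed mouse 4.

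Of 22 tested p53 targets other than the genes above, 2 were called higher, 2 lower and 18 neither, with a median log2 fold change of -0.18. Ddb2, which recognises ultraviolet damage in DNA, fell from 34.6 ± 11.9 to 10.4 ± 7.29 normalized counts per library (SD over 4 and 5 mice, log2 fold change of -1.85, adjusted p = 0.0102, limma). Trp53i11, named for its induction by p53, fell from 24.7 ± 5.53 to 7.84 ± 2.69 (SD over 4 and 5 mice, -1.58 on the log2 scale, adjusted p = 0.00921, limma). Both are low in CR mice, with 3.43 to 19.1 normalized counts for Ddb2 and 4.13 to 11.3 for Trp53i11. With a minimum of 30 normalized counts in at least 4 libraries neither was tested, and 0 of these p53 targets were called lower. Dram1, a regulator of autophagy, rose from 43.7 ± 4.81 to 86.0 ± 23.8 (SD over 4 and 5 mice, 0.92 on the log2 scale, adjusted p = 0.0119, limma). Gdf15, a stress-induced cytokine named after its values were seen, rose from 44.6 ± 15.9 to 95.1 ± 46.8 (SD over 4 and 5 mice, 1.02 on the log2 scale, adjusted p = 0.0341, limma). These shares, 2 of 22 in each direction, are near those of all tested genes, and the call of Gdf15 was lost without ad libitum-fed mouse 2, 3 or 4 or CR mouse 2, 4 or 5 (highest adjusted p = 0.113). Among 11 tested regulators and relatives of p53, Mdm4, the partner of MDM2 that inhibits p53, fell from 43.0 ± 21.0 to 16.3 ± 3.63 (SD over 4 and 5 mice, -1.25 on the log2 scale, adjusted p = 0.0160, limma). Without ad libitum-fed mouse 4 its adjusted p was 0.0782. None of the other 10 was called by limma, among them Ppp1r13b, a cofactor of p53 (-1.13, adjusted p = 0.150). Rpl11, a ribosomal protein that binds MDM2, just missed the threshold with limma (-0.41, adjusted p = 0.0544) and was called lower by DESeq2 and edgeR (adjusted p = 0.0140 and 0.0459).

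Of the other CDK inhibitors and pocket proteins, 3 were tested. Cdkn1c, which encodes p57, rose from 58.1 ± 11.4 to 139 ± 39.5 normalized counts per library (SD over 4 and 5 mice, log2 fold change of 1.22, adjusted p = 0.00180, limma). Rbl2, the pocket protein p130 of resting cells, fell from 37.7 ± 19.2 to 14.8 ± 8.11 (SD over 4 and 5 mice, -1.28 on the log2 scale, adjusted p = 0.0424, limma). The Rbl2 call was lost without ad libitum-fed mouse 3, 4 or 5 or CR mouse 3, 4 or 5 (highest adjusted p = 0.158). Cdkn2d, which encodes p19, was at -0.74 (adjusted p = 0.109, limma). Of 5 tested genes of p27 turnover, the scaffold Cul1 was at the edge of the threshold (0.83, adjusted p = 0.0482, limma). It was called in 0 of 9 fits that left out a mouse, and its adjusted p was 0.0780 with DESeq2 and 0.0706 with edgeR. Rnf123 was at -1.08 and Cks1b at 0.85 with adjusted p of 0.0666 and 0.286 (limma), and DESeq2 and edgeR called Rnf123 lower (adjusted p = 0.0480 and 0.0361). Of 5 tested G1 cyclins, CDKs and their regulators, Myc, which drives entry into the cycle, rose from 326 ± 33.3 to 568 ± 60.4 (SD over 4 and 5 mice, 0.80 on the log2 scale, adjusted p = 0.00150, limma). The D-type cyclins Ccnd3 and Ccnd2 fell, by 1.18 and 1.23 on the log2 scale (adjusted p = 0.00154 and 0.00469, limma). Of 6 tested proliferation genes, the replicative helicase subunit Mcm5 fell from 35.5 ± 14.7 to 6.86 ± 6.37 (SD over 4 and 5 mice, -2.56 on the log2 scale, adjusted p = 0.00596, limma). Its CR values ran from 0.86 to 14.45 normalized counts, where 3 recovered counts correspond to 1.55 to 2.90 in CR libraries. With a minimum of 30 normalized counts in at least 4 libraries Mcm5 was not tested, and 0 proliferation genes were called lower. The Mcm5 partners Mcm6 and Mcm7 were at -0.91 and 0.39 on the log2 scale (adjusted p = 0.103 and 0.444, limma), and 12 of the 22 listed proliferation genes had a row at all.

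Of 5 tested kinases of the pathways that GADD45 proteins feed, Mapk14, which encodes p38 alpha, and Map2k7, a JNK kinase, fell, by 1.20 and 0.89 on the log2 scale (adjusted p = 0.0206 and 0.0234, limma). Each call was lost without some mice, that of Mapk14 without ad libitum-fed mouse 2 or 4 (highest adjusted p = 0.0919) and that of Map2k7 without ad libitum-fed mouse 3 or CR mouse 3 (highest adjusted p = 0.0930). Mapk9, which encodes a JNK, was at 0.72 (adjusted p = 0.35, limma). Of 11 tested genes of the BTG/TOB family and the CCR4-NOT complex, 0 were called, with 1 higher and 1 lower at an unadjusted p under 0.05, and DESeq2 called 1 higher and edgeR 0. The smallest p belonged to Prmt1, an arginine methyltransferase that binds BTG proteins (log2 fold change 0.60, adjusted p = 0.05002, just above the threshold), followed by the deadenylase subunit Cnot8 (-0.58, adjusted p = 0.125) and Tob1 (-0.25, adjusted p = 0.497), all with limma.

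**Figure D4:**
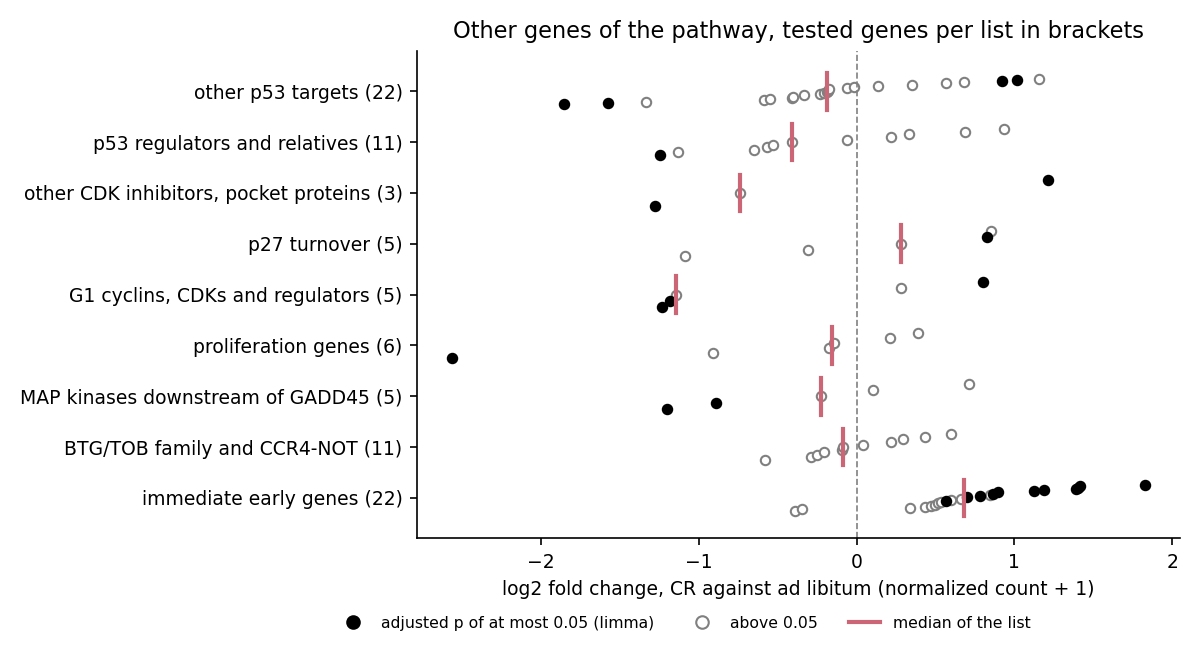
Log2 fold change, CR against ad libitum, of each tested gene in 8 pathway lists and in the list of immediate early genes, with the number of tested genes in brackets, filled where the adjusted p is at most 0.05 (limma) and a red line at the median. Called genes lie on both sides of 0 in the pathway lists, and the 11 called immediate early genes all lie above 0.

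Several measures moved with the diet alongside Gadd45g and Cdkn1a, and their part in these results was not tested. Of 22 tested immediate early genes, which cells switch on within minutes of a stimulus or of handling, 11 were called higher and 0 lower (19 and 0 at an unadjusted p under 0.05), with a median log2 fold change of 0.68. With the libraries scaled to the fibroblast markers, as described further on, 4 were called higher and 1 lower, with a median of 0.12. Egr1 had the smallest p among them (log2 fold change 1.39, adjusted p = 2.1e-05, limma) and the heat shock gene Hspa1b the highest mean (0.44, adjusted p = 0.241, limma). Summed, this list made 17647, 15171, 15697 and 15697 normalized counts in mice 2 to 5 of the ad libitum group and 24983, 36012, 22254, 24524 and 25428 in CR mice 1 to 5. CR mouse 2 was highest in this sum and for Gadd45g and Btg2. The same mouse was the lowest CR mouse for Gadd45a and the second lowest for Cdkn1a, for which CR mouse 1 was highest. Whether the sum and the single genes go together was not tested. All 11 tested T cell markers were lower in CR, with a median log2 fold change of -3.78, and their sum was 1584 to 2686 normalized counts in ad libitum-fed and 100.4 to 208.5 in CR mice. Lat, the T cell adaptor with both the smallest p and the highest mean, was at 580.0 ± 148 (SD, n = 4) and 39.5 ± 11.4 (SD, n = 5). Although the depletion targets fibroblasts, all 12 fibroblast markers were tested, and 5 were called higher and 0 lower (6 and 0 at an unadjusted p under 0.05). The called ones were Dcn, Fbln1, Dpt, Clec3b and Pi16, of which all but Dcn are named after their values were seen. The log2 fold change was above 0 for 9 of the 12, with a median of 0.54. Below 0 were Col1a1, Col3a1 and Lum, also named after their values were seen. These were at -0.09, -0.07 and -0.51 (adjusted p = 0.856, 0.899 and 0.474, limma). The 12 markers summed to 6629 to 13450.2 in ad libitum-fed and 13014 to 15943 in CR mice. Dcn, a matrix proteoglycan, had both the smallest p and the highest mean among them (log2 fold change 0.70, adjusted p = 0.00473, limma). Fewer cells of a type and less RNA per cell cannot be told apart in such bulk samples.

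The markers of other cells the gate could hold were mostly low. Mast cell markers were called lower for 4 of 4 tested genes, Hdc, Mcpt4, Tpsb2 and Cma1, the last pair named after their values were seen (Hdc had the smallest p, at -2.75, and Mcpt4 the highest mean, at -2.82 on the log2 scale), with sums of 345 to 630.1 normalized counts in ad libitum-fed and 29.1 to 133 in CR mice. Of 3 tested macrophage markers, Tyrobp was called lower (-3.27) and Cd14, with the highest mean, was at -0.07 (adjusted p = 0.946, limma), and the sums were 133 to 343 and 50.6 to 331. Of 12 listed, 9 had a row, and all those below the filter had a lower mean in CR, at few counts. Among these C1qa, named after its values were seen, was at 15.9 ± 11.1 (SD, n = 4) and 2.91 ± 2.82 (SD, n = 5). The B cell marker Blk fell (-3.28), and its list summed to 26.9 to 53.4 in ad libitum-fed and 0 to 10.3 in CR mice. Of 3 tested endothelial markers, Pecam1 fell (-2.53) and Tek, named after its values were seen, rose (2.15), with sums of 66.4 to 111 and 42.0 to 97.6, and of 3 tested pericyte and smooth muscle markers, Tagln rose (1.39), with sums of 107 to 147 and 133 to 397. Epithelial markers, which the sort should exclude, summed to 23.4 to 76.0 normalized counts in ad libitum-fed and 15.3 to 21.2 in CR mice. Of 8 listed, 4 had a row, and the single tested one, Cd24a, which encodes CD24 itself, was at 0.12 (adjusted p = 0.894, limma). Itga6, which encodes CD49f and had the highest mean of these, was at 23.5 ± 22.8 (SD, n = 4) and 3.90 ± 2.40 (SD, n = 5).

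The 2 calls depend on what the libraries are scaled to. With the libraries scaled to the 12 fibroblast markers in place of all genes, the median log2 fold change of all tested genes moved by -0.54, to -0.47, and 0.734% of tested genes were called higher and 18.5% lower. Gadd45g was then at 0.66 (adjusted p = 0.0643, limma) and Cdkn1a at 0.28 (adjusted p = 0.388, limma), both above that median and neither called. Trp53 and Mdm2 went to -0.64 and -0.82 (adjusted p = 0.111 and 0.0726, limma), and Gadd45b, Gadd45a and Btg2 to -0.18, -0.29 and -0.058. The 5 pathway genes called higher stayed above 0 and lost their call. Those called lower kept theirs and rose in number from 9 to 18 of the 68 tested.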

How the data were processed

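Bulk MARS-Seq, which counts RNA molecules at their 3' ends by molecular identifiers, was run on 4 ad libitum and 5 CR mice. The authors trimmed reads with cutadapt, aligned them to mm10 with STAR, counted molecules over 3' gene ends (RefSeq) with HTSeq, corrected for saturation of the identifiers, and deposited the signal as counts divided by DESeq2 size factors. For the versions of these tools: not given in the sources used here. Nearly all deposited values are whole multiples of 1 step per library (100% of values in 8 libraries and 99.98% in ad libitum-fed mouse 4, to within 0.0051). The whole molecule counts recovered in this way, 382877 to 1485963 per library, were used for alternatives and counting errors. Intervals from counts and the limit of 3 counts cover counting error only. A gene whose 3' end lies outside the counted region, or that has few molecules, is measured poorly. No gene annotated in GENCODE M21 overlapped the counted 3' end of any of the 10 genes. No library was a duplicate (smallest chi-square per degree of freedom 3.70).

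Genes with at least 10 normalized counts in at least 4 libraries were tested with limma 3.58.1 (trend) on log2(normalized count + 1), a scale that understates changes of low genes. Single genes and ratios were compared by permuting the diets exactly, two-sided, over 126 assignments. The limma fit was checked on simulated data. Alternatives were DESeq2 1.42.0 and edgeR 4.0.16 (quasi-likelihood, TMM) on recovered counts, 3 other scalings, other pseudocounts and filters, leaving out each library, and a replicate block. The genes and all lists were chosen with earlier results of these data known. Named genes are the 10 genes, in each pathway list the 3 tested genes with the smallest p, and in each other list those with the smallest p and the highest mean. Others are marked. Promoter sequences are from RefSeq, gene positions from GENCODE M21, and no protein sequences were used here. Some genes of the lists were not analysed here.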

Additional observations from a re-analysis of the deposited data

Results flagged for a closer look

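In 18 groups of 4 or 5 libraries (9 genes in 2 diets), the highest and the lowest value were compared with the rest by Dixon's criterion, which chance alone exceeds in about 1 of 20 groups. Gadd45a in CR mouse 1, at 367.2 normalized counts, stood apart from the other CR mice, with a gap of 0.716 of the range of the group. Btg1 in ad libitum-fed mouse 2, at 7.18 normalized counts, stood apart from the other ad libitum-fed mice, with a gap of 0.879 of the range, at 8 recovered counts in that library.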

How the results depend on the processing

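Over 562 values recomputed under the alternatives, 492 kept their direction and their side of the threshold or, for counts of calls, stayed within a set fold of the main fit. Another 64 moved, 2 lost their call and 4 changed sign. Counts of short lists that stayed at 0 in every fit are among the 492, so this total says little about single results. The calls of Cdkn1a and Gadd45g held in 19 of 20 alternatives each, 2 of which are the same fit, made without CR mouse 1. Scaling to the fibroblast markers ended both calls, at log2 fold changes of 0.28 and 0.66. It left 0 of the 7 tested growth arrest genes called by limma, with 1 higher and 2 lower at an unadjusted p under 0.05. This scaling moved the counts over all tested genes from 544 higher and 623 lower to 50 higher and 1259 lower. Under it Gadd45a, Gadd45b and Btg2 changed sign, to -0.29, -0.18 and -0.058. Trp53 and Mdm2 went to -0.64 and -0.82, without a call. Library total and upper quartile scaling moved the median of all tested genes by -0.09 and 0.04. DESeq2, run on all 11063 genes without the filter on low values, called 533 genes higher and 871 lower. On the 6815 filtered genes edgeR called 457 and 661, and limma with a minimum of 30 normalized counts called 494 and 432. Leaving out 1 library gave 365 to 607 genes called higher, 501 to 628 lower, and 9 to 16 of the pathway genes against 14 with all libraries. Over these same fits Trp53 ranged from -0.17 to 0.056 and changed sign without ad libitum-fed mouse 3. No sign was seen that the replicate numbers pair the mice: the correlations of same-numbered libraries were -0.07, -0.02, 0.03 and 0.04, and not every library correlated best with its own number. With so few libraries these correlations cannot exclude a pairing. With the number as a replicate block on 8 libraries, 388 genes were called higher and 526 lower. The same 8 without the block, a fit added after seeing the data and equal to leaving out CR mouse 1, gave 414 and 554. Cdkn1a (0.76) and Gadd45g (1.17) were called in both. Whether the fibroblast markers or all genes are the better reference was not tested. Cdkn1b and Btg1 had at most 18 recovered counts, and why they were so low was not tested.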

Other observations

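The promoter windows of the genes that did not pass the threshold also held matches. Btg2 was the only one of the 10 genes with TGACGTCA, the cyclic AMP response element, 166 to 159 bases before its start, a string found in 1.79% of RefSeq windows. Mdm2 held a p53 half-site 186 to 177 bases before its start and Trp53 one 75 to 66 bases before. Btg1 had TATAAA 26 to 21 bases before its start. TGANTCA, the AP-1 site, was in none of the 12 windows of the 10 genes and in 7.81% of all windows. These are descriptions of sequence and were tested against no value.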
